A study of Mus musculus with 9 samples.

Results

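The granulopoiesis transcription factors described here were a named set of 10 genes (Cebpa, Cebpb, Cebpd, Cebpe, Gfi1, Spi1, Runx1, Irf8, Myb and Myc) among the 46517 genes in the table, chosen by name and not by any measured value. Their mRNA was measured by RNA sequencing in 9 libraries of sorted neutrophils, 3 each from bone marrow, blood and pancreatic tumor. The mice were C57BL/6 animals carrying an orthotopic pancreatic tumor (OT mice), in which cells of a luciferase-expressing line derived from the KPC mouse model of pancreatic ductal adenocarcinoma had been injected into the pancreas. All groups shared this tumor and were sorted on day 27 after transplantation as viable CD45+ cells without CD3, B220 and NK1.1 and with Ly6G and Ly6C, the bone marrow cells being called Ly6G.hi and the blood and tumor cells Ly6G+ in the labels. Each library was a pool of several mice, whose ages are not given in the sources used here, so the p-values measure the spread between pools, and no tumor-free mice were analysed here. The paper describes the compartments as taken from the same mouse, so libraries of different compartments may share a pool. The main fit treated the 9 libraries as independent. The comparisons ask how the factors that build a neutrophil in the marrow differed in cells that had left it for the blood and for the tumor.

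Neutrophils arise in the bone marrow through myeloblast, promyelocyte and myelocyte stages, and each stage relies on particular transcription factors. PU.1 (encoded by Spi1), C/EBPα and RUNX1 open the myeloid program, MYB and MYC accompany the dividing progenitors, GFI1 and C/EBPε carry cells through the granule-forming stages, and C/EBPβ and C/EBPδ act in later cells and under inflammatory demand. IRF8 directs the common progenitor towards monocytes and dendritic cells, and a mature neutrophil keeps only part of this machinery.

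Reference promoters were at hand for 6 of the 10 genes, 9 sequences in all, from RefSeq on GRCm38.p6, each covering 250 bases before and 50 bases after a transcription start. Short core letters of the factors themselves were searched on both strands: GCAAT for C/EBP, GAGGAA for PU.1, TGTGGT for RUNX, CACGTG for the MYC E-box, AAATCA for GFI1 and AACTG for MYB. The 4 promoters that hold such letters before the start closest to the annotated gene start are shown, because they hold letters that factors of the set are known to bind. Each line gives the 250 bases before the start, 5′ to 3′ on the strand of the gene, with every match in capitals.
Cebpb: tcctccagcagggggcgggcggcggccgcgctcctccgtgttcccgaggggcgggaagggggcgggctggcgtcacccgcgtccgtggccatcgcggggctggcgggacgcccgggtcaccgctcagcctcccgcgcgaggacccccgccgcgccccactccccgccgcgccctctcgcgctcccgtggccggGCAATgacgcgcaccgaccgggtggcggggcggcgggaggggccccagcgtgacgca
Gfi1: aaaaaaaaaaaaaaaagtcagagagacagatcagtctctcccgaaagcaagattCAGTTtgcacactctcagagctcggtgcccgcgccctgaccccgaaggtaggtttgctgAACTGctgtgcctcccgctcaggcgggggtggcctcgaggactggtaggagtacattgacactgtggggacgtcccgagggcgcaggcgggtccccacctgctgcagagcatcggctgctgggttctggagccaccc
Irf8: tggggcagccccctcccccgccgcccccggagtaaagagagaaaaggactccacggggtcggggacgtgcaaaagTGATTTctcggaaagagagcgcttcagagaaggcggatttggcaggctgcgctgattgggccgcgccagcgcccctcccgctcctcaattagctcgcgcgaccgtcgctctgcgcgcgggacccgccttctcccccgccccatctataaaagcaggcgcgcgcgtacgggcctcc
Runx1: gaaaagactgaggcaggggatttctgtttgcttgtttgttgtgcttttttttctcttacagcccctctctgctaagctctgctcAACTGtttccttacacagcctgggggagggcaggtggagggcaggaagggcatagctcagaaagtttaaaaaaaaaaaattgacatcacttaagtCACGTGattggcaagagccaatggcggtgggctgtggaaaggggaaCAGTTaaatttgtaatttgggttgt
The Cebpb bases lie at chr2:167688665-167688914 on the plus strand and carry 1 C/EBP match at position -57, with the start base counted as 0. The Gfi1 bases lie at chr5:107725806-107726055 on the minus strand and carry MYB letters at -196 and -137. The Irf8 bases lie at chr8:120736108-120736357 on the plus strand and carry GFI1 letters, on the opposite strand, at -175. The Runx1 bases lie at chr16:92826075-92826324 on the minus strand, with MYB letters at -166 and -25 and an E-box at -71, and 2 RUNX matches follow the start at 28 and 36. Matches of different factors did not overlap each other. Such letters are common: among 32851 promoters of the same 300-base length, 26.4% held the C/EBP letters, 28.3% the PU.1, 16.8% the RUNX, 7.15% the E-box, 14% the GFI1 and 44.8% the MYB letters. The Cebpa promoter held only 1 MYB match, after the start, and the Myb promoter held none of the 6, which says only that these letters are absent from that window.

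The deposited unit was log2 FPKM, the log2 of sequenced fragments per gene length and library size, with the genomic span as the length for most genes. That span runs over introns, so levels were compared between genes only on a second scale, reads per kilobase of exon divided by the scaled library size. It was computed from whole reads recovered from the deposited values. This scale takes every read as an exon read, and the paper does not state whether reads in introns were counted. It was not adjusted for GC content (62.6% in Cebpa, 67.2% in Cebpb and 61.5% in Cebpe). On this exon-length scale the bone marrow libraries showed a wide order among the factors. Spi1 stood highest at a median of 385 (range 338 to 395), above Cebpd at 237 (188 to 299) and Cebpe at 83.7 (71.4 to 97.5), and these ranges did not overlap. Cebpb at a median level of 14.6, Irf8 at 9.18, Myc at 6.37, Runx1 at 4.67, Myb at 3.98, Cebpa at 1.94 and Gfi1 at 1.80 followed, and among them only the ranges of Irf8 and Myc and of Cebpa and Gfi1 overlapped.

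In blood the order on the exon-length scale had changed. Spi1 (median level 215) and Cebpd (151) still led, with overlapping ranges, whereas Runx1 came next at 4.81 and Cebpe had dropped to 1.01. Myb and Gfi1 were last at medians of 0.143 and 0.0562. In tumor Spi1 (113) and Cebpd (61.5) led again with overlapping ranges, Myc followed at 27.0 with a range that overlapped that of Cebpd but not that of the next gene, Runx1 at 8.34, and Gfi1 had a median of 0.

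The cells labelled as neutrophils carried neutrophil transcripts in every library, although the amount differed between compartments. The 10 neutrophil markers, which include Ly6g, S100a8 and Csf3r, summed to 46548 to 47723 RPM (reads scaled to a common library total) in bone marrow, to 38844 to 39247 RPM in blood and only to 12431 to 14673 RPM in tumor. Transcripts of epithelium, fibroblasts and acinar cells were highest in tumor: 11 pancreatic epithelium markers summed to 2827 to 6006 RPM there against 42.0 to 201 elsewhere, 8 fibroblast markers to 1108 to 1363 against at most 9.99, and 9 acinar markers to 558 to 2409 against at most 7.47. The 15 monocyte and macrophage markers summed to 1432 to 1684 RPM in blood, against 627 to 902 in bone marrow and 526 to 681 in tumor, but Csf1r alone gave 62.2% to 65.2% of the blood sum. Without it the other 14 summed to 513 to 637 RPM in blood, 302 to 436 in tumor and 361 to 662 in bone marrow, so blood and bone marrow overlapped. Recovered reads numbered 4580807 to 7949367 per library, and the part of these other cells in the results below was not tested. In these bulk samples, fewer cells of a type and less RNA per cell cannot be told apart.

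With limma on log2 FPKM values over 0 in at least 3 libraries, 7 of the 10 factors entered the test among 7794 genes, and Gfi1, Myb and Runx1 did not. Since a factor that is on in a single compartment passes such a filter only through that compartment, the counts over these 7 are a description. Irf8 passed it only through the bone marrow libraries. From bone marrow to blood, 3 of the 7 (Cebpe, Irf8 and Myc) fell and 0 rose at a Benjamini-Hochberg adjusted p under 0.05, where 23.6% of all genes tested fell and 20.6% rose. At an unadjusted p under 0.05 the number that rose was also 0, as it was for all 10 factors by limma-voom applied to recovered reads. Between blood and tumor, 4 (Cebpa, Cebpd, Spi1 and Irf8) were lower in tumor against 34.5% of all genes, and 1 (Myc) was higher against 28.1%. Between bone marrow and tumor, 5 (the same 4 and Cebpe) were lower in tumor against 32.9% of genes and 1 (Myc) was higher against 22.4%.

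The tumor contrasts share the tumor libraries, and the blood libraries enter 2 contrasts as well, so the 3 counts are not independent of each other. With the filter replaced by at least 5 reads in any library, 17714 genes and all 10 factors were tested. On this wider basis, 5 factors fell from bone marrow to blood against 16.3% of genes and 0 rose against 12.6%. In tumor against blood 4 were lower (20.2% of genes) and 2 higher (32.4%), and against bone marrow 7 were lower (18.4%) and 2 higher (25.2%). The values of Gfi1, Myb and Runx1 below come from this fit. In the same fit, all 10 neutrophil markers were lower in tumor than in blood, with a median difference of -1.84. Against bone marrow, 9 of the 10 were lower in tumor, with a median of -2.76. Their part in the tumor differences of the factors was not tested. With no filter at all, where 46517 genes share the adjustment, the tumor calls of Spi1 and Cebpd in both contrasts, of Cebpa against blood and of Myc against bone marrow, the blood calls of Irf8 and Myc, and both calls of Gfi1 were lost (adjusted p of 0.057 to 0.221).

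**Figure D1:**
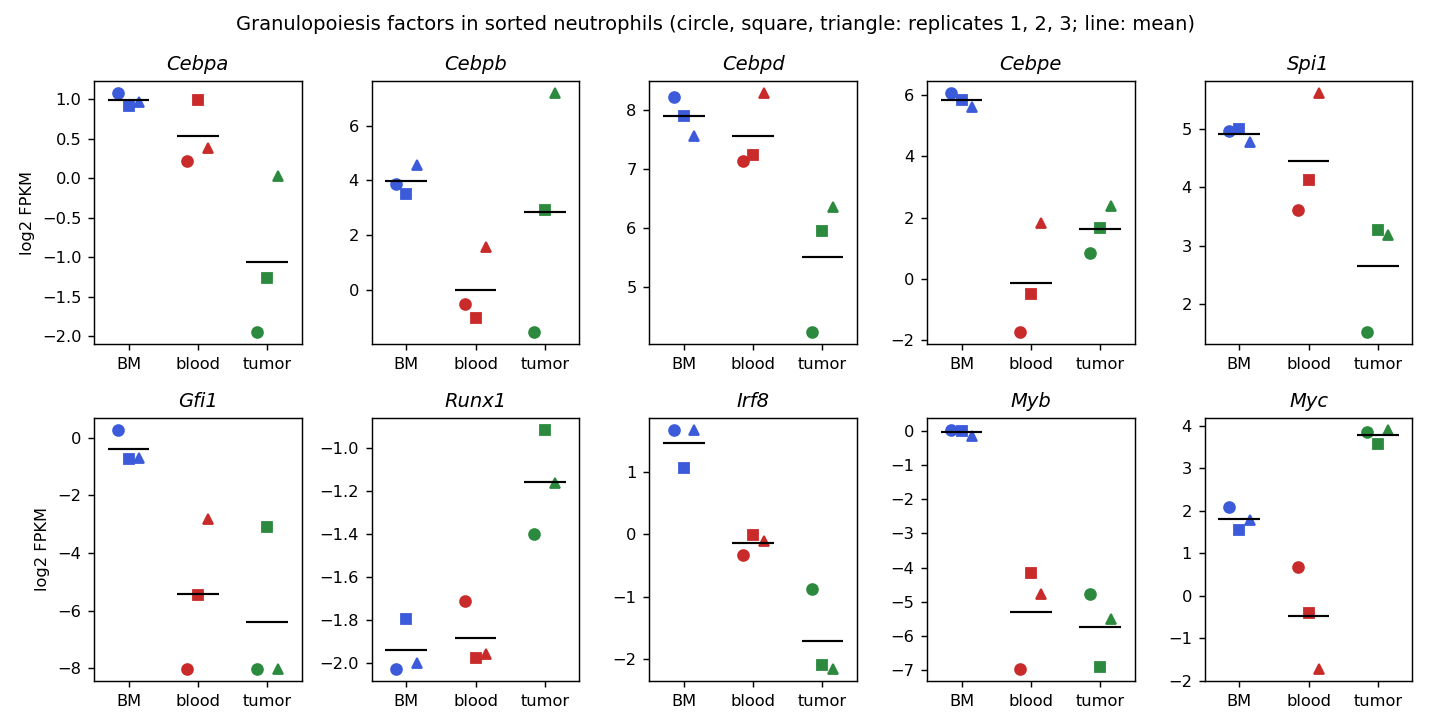
Log2 FPKM (vertical axes, each with its own range) of the 10 factors in bone marrow (BM, blue), blood (red) and tumor (green) neutrophils, with circle, square and triangle for replicates 1, 2 and 3 and a line at the mean. Irf8 and Myc were apart in all 3 compartments, Cebpe, Gfi1 and Myb were high only in bone marrow, and the Cebpb values in tumor ran from -1.53 to 7.19.

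Spi1 encodes PU.1, an ETS factor needed for myeloid cells, at chr2:91082390-91115756 on the plus strand of GRCm38. Values of a compartment are given in the order of replicate 1, 2 and 3. Spi1 log2 FPKM was 4.96, 4.99 and 4.77 in bone marrow, 3.61, 4.12 and 5.61 in blood and 1.52, 3.27 and 3.19 in tumor, from 595 to 7642 reads per library. All tumor libraries were below all others, while the blood libraries lay on both sides of the bone marrow. The difference was -2.25 (SE 0.60, adjusted p = 0.0138, limma) between tumor and bone marrow, a 4.74-fold lower level, and -1.78 (SE 0.60, adjusted p = 0.0315) between tumor and blood. Blood against bone marrow differed by -0.46 (95% interval -1.86 to 0.93, adjusted p = 0.569). The call against blood was lost when blood replicate 2 (adjusted p = 0.0507), blood replicate 3 (0.0845) or tumor replicate 1 (0.0862) was left out, with plain library totals (0.0811), with quantile normalization (0.0613) and in a fit of the 2 groups alone (0.0741).

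Cebpa (chr7:35119293-35121928, plus strand) encodes C/EBPα, which commits progenitors to the granulocyte path, and it was among the lowest factors in bone marrow on the exon-length scale. Cebpa log2 FPKM stood at 1.08, 0.92 and 0.97 in bone marrow, 0.22, 0.99 and 0.39 in blood and -1.95, -1.27 and 0.03 in tumor. These levels stood on 28 to 37 reads per bone marrow library, 12 to 29 in blood and 4 to 21 in tumor. Tumor lay below the other compartments without overlap, and blood and bone marrow overlapped. Cebpa was lower in tumor than in bone marrow by a difference of -2.06 (SE 0.47, adjusted p = 0.00691, limma) and than in blood by -1.60 (SE 0.47, adjusted p = 0.0182). The call against blood was lost without blood replicate 2 (adjusted p = 0.0633) or tumor replicate 2 (0.0529), with plain library totals (0.0721) and in a fit of the 2 groups alone (0.0516).

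Runx1 (chr16:92601466-92826149, minus strand), which encodes the core binding factor that starts definitive blood formation, showed small differences between compartments. Its log2 FPKM was -2.03, -1.80 and -1.999 in bone marrow, -1.71, -1.98 and -1.96 in blood and -1.40, -0.91 and -1.16 in tumor. These low values reflect its genomic span of 224684 bases against 12025 exon bases, since 271 to 901 reads per library were counted. The tumor libraries were above the other 6, and 2 of the 3 blood libraries lay within the range of bone marrow. The difference was 0.72 (SE 0.25, adjusted p = 0.0382, limma) between tumor and blood and 0.78 (adjusted p = 0.0332) between tumor and bone marrow, while the median difference of all 17714 genes in these contrasts was 0.50 and 0.29. The direction against blood turned to -0.06 with quantile normalization and to -0.03 with median centring, and both calls were lost with either, with the replicate block (adjusted p = 0.0691 and 0.064) and with values adjusted for GC content (0.412 and 0.189). Leaving out bone marrow replicate 1 or 2 or tumor replicate 2 also ended both calls, as did blood replicate 2 or 3 for the first and bone marrow replicate 3 for the second, with adjusted p up to 0.0932.

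The RUNX partners gave no call to set beside it. Of the 6 listed, which include Runx2, Runx3 and Cbfb, the gene of the shared β subunit, 5 were tested with the filter on reads, and 0 were called in any of the 3 contrasts by limma. At an unadjusted p under 0.05 only 1 passed, lower in tumor than in bone marrow, and limma-voom on recovered reads called 1 in each contrast. Over all genes, limma called 12.6% higher and 16.3% lower in blood than in bone marrow. For tumor these shares were 32.4% and 20.2% against blood, and 25.2% and 18.4% against bone marrow. Cbfb differed by 0.03 between tumor and blood and by -0.28 between tumor and bone marrow (adjusted p = 0.929 and 0.309).

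Gfi1, Cebpe and Myb, which act in the dividing and granule-forming stages, were higher in every bone marrow library than in any blood or tumor library, as was Irf8. GFI1, whose gene lies at chr5:107716657-107726036 on the minus strand, is a zinc finger repressor needed for neutrophil maturation. Gfi1 was read 76, 32 and 38 times in the bone marrow libraries, 0, 1 and 6 times in blood and 0, 8 and 0 times in tumor. A count of 0 allows a level of up to 0.655 RPM in blood replicate 1, 0.551 in tumor replicate 1 and 0.461 in tumor replicate 3, counting error only. The bone marrow libraries were above all others, and blood and tumor overlapped.

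Gfi1 was called lower in tumor than in bone marrow (log2 FPKM difference -6.00, SE 1.60, adjusted p = 0.0159, limma) and lower in blood (-5.05, adjusted p = 0.0462). The size of these differences depends on the constant in the deposited values: with 1 FPKM added they were -0.78 and -0.77. The call in blood was lost in 14 of 21 alternatives, and that in tumor without bone marrow replicate 1, tumor replicate 1 or tumor replicate 3 (adjusted p up to 0.0682) and without a filter (0.095). Tumor and blood differed by -0.95 (95% interval -4.63 to 2.73, adjusted p = 0.642), which became 0.35 without blood replicate 3.

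Cebpe (chr14:54710360-54712174, minus strand) encodes C/EBPε, the factor of the promyelocyte-to-myelocyte step that is required for the secondary granule proteins. Its log2 FPKM was 6.06, 5.84 and 5.61 in bone marrow, -1.74, -0.49 and 1.83 in blood and 0.85, 1.66 and 2.37 in tumor. In reads these were 588 to 809 per bone marrow library, 2 to 30 in blood and 20 to 74 in tumor. Bone marrow was far above both other compartments, and tumor and blood overlapped through blood replicate 3.

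Cebpe fell by 5.97 on the log2 scale from bone marrow to blood (SE 0.82, adjusted p = 0.000899, limma), a 62.8-fold lower level, and was lower in tumor than in bone marrow by a difference of -4.21 (adjusted p = 0.00318). Between tumor and blood the difference was 1.76 (95% interval -0.15 to 3.67, adjusted p = 0.0965). Without blood replicate 3 it was 2.74 and passed the threshold (adjusted p = 0.00347), as it did with plain library totals (2.21, adjusted p = 0.0439).

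Myb (chr10:21124935-21160984, minus strand), the gene of a progenitor factor that is normally shut off as myeloid cells mature, was read 245, 201 and 215 times in bone marrow, 1, 11 and 6 times in blood and 8, 2 and 6 times in tumor. Its log2 FPKM was 0.03, -0.02 and -0.15 in bone marrow and at most -4.16 in the other 6 libraries, without overlap. The difference was -5.25 (SE 0.81, adjusted p = 0.00206, limma) for blood and -5.68 (adjusted p = 0.000687) for tumor against bone marrow, and -0.43 (95% interval -2.29 to 1.44, adjusted p = 0.681) between tumor and blood. The last value was called lower with quantile normalization (-2.79, adjusted p = 0.0138), and its sign turned with plain library totals and without blood replicate 2 or tumor replicate 2. With 1 FPKM added the first 2 were -0.93 and -0.95.

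Genes of the stages these factors serve followed the same split between bone marrow and blood. All 10 specific granule genes tested fell from bone marrow to blood, with a median difference of -3.83 against 0.00 over all genes. All 10 were also lower in tumor than in bone marrow (median -3.70). Over all genes, 16.3% were lower in blood than in bone marrow and 18.4% in tumor than in bone marrow. Ltf, the lactoferrin gene, had log2 FPKM of 10.60, 10.78 and 10.60 in bone marrow, 4.94, 4.37 and 4.57 in blood and 7.34, 6.51 and 7.15 in tumor. It was higher in tumor than in blood by 2.37 (adjusted p = 6.3e-05, limma). In that contrast 4 of the 10 genes rose and 2 fell, where 32.4% of all genes were higher and 20.2% lower.

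Of 9 azurophil granule genes, 8 fell from bone marrow to blood (median difference over the list -4.82) and 1 (Srgn, the gene of a granule proteoglycan that many blood cells make) rose by 1.95 (adjusted p = 0.00116, limma). Over all genes, 16.3% fell and 12.6% rose in this contrast. Elane, the neutrophil elastase gene, was read 1479 to 2306 times per bone marrow library, 0, 9 and 0 times in blood and 10, 19 and 31 times in tumor. Markers of eosinophils, basophils and mast cells also moved with Cebpe, Gfi1 and Myb, and their part in these differences was not tested. Of 10 such markers, 8 were lower and 1 (Siglecf) was higher in blood than in bone marrow, with the same counts in tumor against bone marrow (median differences -5.97 and -7.47). Over all genes, 16.3% were lower and 12.6% higher in blood than in bone marrow, and 18.4% and 25.2% in tumor. Without Siglecf, which gave 91.4% to 96.3% of the sum in blood and tumor, the bone marrow libraries held 132 to 188 RPM of these markers, the blood libraries 8.98 to 10.5 and the tumor libraries 6.61 to 9.76. Prss34, a basophil protease gene, was read 403 to 675 times per bone marrow library and at most 2 times in any other, and Epx, the eosinophil peroxidase gene, was at 0 reads in all 6 blood and tumor libraries.

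Of 16 proliferation genes, 16 fell from bone marrow to blood (16.3% of all genes) and 15 were higher in tumor than in blood (32.4%) with the filter on reads. Against bone marrow, 6 were lower in tumor (18.4% of all genes), a count that was 8 with the first filter and 9 by limma-voom. Median differences of the 16 genes were -4.88, 4.01 and -0.70 in these contrasts, against 0.00, 0.50 and 0.29 over all genes. Their summed level reached 949 to 1361 RPM in tumor, against 1120 to 1614 in bone marrow and 134 to 161 in blood, so proliferation transcripts stood high in tumor libraries where Myb and Gfi1 did not. The tumor libraries also held 2827 to 6006 RPM of epithelial markers, and the part of other cells in the proliferation transcripts was not tested.

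Relatives and corepressors of Gfi1 differed between the tumor contrasts in their counts. Of 8 tested on the read filter, 5 were higher and 1 was lower in tumor than in blood, where 32.4% of all genes were higher and 20.2% lower, with a median difference of 0.91 against 0.50 over all genes. Against bone marrow 3 were higher (25.2% of all genes) and 1 lower (18.4%), with a median of 0.17 against 0.29. Kdm1a, the gene of the histone demethylase LSD1 that GFI1 recruits, was higher in tumor than in blood by 1.02 (SE 0.29, adjusted p = 0.0182, limma), although it rested on 36 to 164 reads per library. Zbtb16, the one that was lower, encodes the repressor PLZF and differed by -2.62 (adjusted p = 0.00353).

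Cebpb and Cebpd encode the C/EBP proteins that act late and in inflammation, and they differed in their spread within tumor. Cebpd lies at chr16:15887286-15891031 and Cebpb at chr2:167688915-167690418, both on the plus strand. The Cebpd log2 FPKM was 8.22, 7.89 and 7.56 in bone marrow, 7.14, 7.24 and 8.29 in blood and 4.23, 5.94 and 6.35 in tumor, from 137 to 2361 reads per library. Tumor lay below all other libraries, and blood and bone marrow overlapped. Cebpd was lower in tumor than in bone marrow by a difference of -2.38 (SE 0.56, adjusted p = 0.00756, limma), a 5.22-fold lower level, and than in blood by -2.05 (adjusted p = 0.0129). Blood against bone marrow differed by -0.34 (95% interval -1.63 to 0.96, adjusted p = 0.661). In the annotation, 562 of 3746 Cebpd exon bases (15%) are shared with Spidr on the other strand. The deposited Cebpd length was 1181 bases, so the shared part of the bases counted is not known. No source used here states that strand was kept in the counting.

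Cebpb had the largest SD in tumor neutrophils of the 7794 genes tested. Its log2 FPKM was 3.87, 3.51 and 4.57 in bone marrow, -0.52, -0.999 and 1.59 in blood and -1.53, 2.94 and 7.19 in tumor. The tumor libraries held 3, 87 and 1739 reads, against 97 to 237 per bone marrow library and 4, 4 and 21 in blood. Tumor replicate 3 was above every other library and tumor replicate 1 below every other, so tumor overlapped both compartments, whereas all blood libraries were below all bone marrow libraries.

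The SD of Cebpb in tumor was 4.36 on the log2 scale against a median of 0.33 over the genes tested. No contrast of Cebpb passed the threshold: tumor against blood was 2.84 (SE 1.91, adjusted p = 0.228, limma), tumor against bone marrow -1.12 (adjusted p = 0.646) and blood against bone marrow -3.96 (adjusted p = 0.131). The last value passed when only the 2 groups were fitted (adjusted p = 0.00917) and without tumor replicate 1 (0.0301) or tumor replicate 3 (0.0342). Without tumor replicate 1, tumor was above blood by 5.04 (adjusted p = 0.0132), and the value against bone marrow turned to 1.08.

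The gene has a single exon of 1504 bases, of which 312 (20.7%) are also exon of Tmem189 on the other strand. Tmem189 had 380, 660 and 499 reads in the tumor libraries. Cebpb also has the highest GC content of the set, 67.2% of its exon bases, more than 99.4% of the genes tested. Genes over 60% GC differed in tumor replicate 3 from the other 2 tumor libraries by a median of 0.26, and Cebpb by 6.48. The part of Tmem189 reads and of GC content in the spread of Cebpb was not tested.

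**Figure D2:**
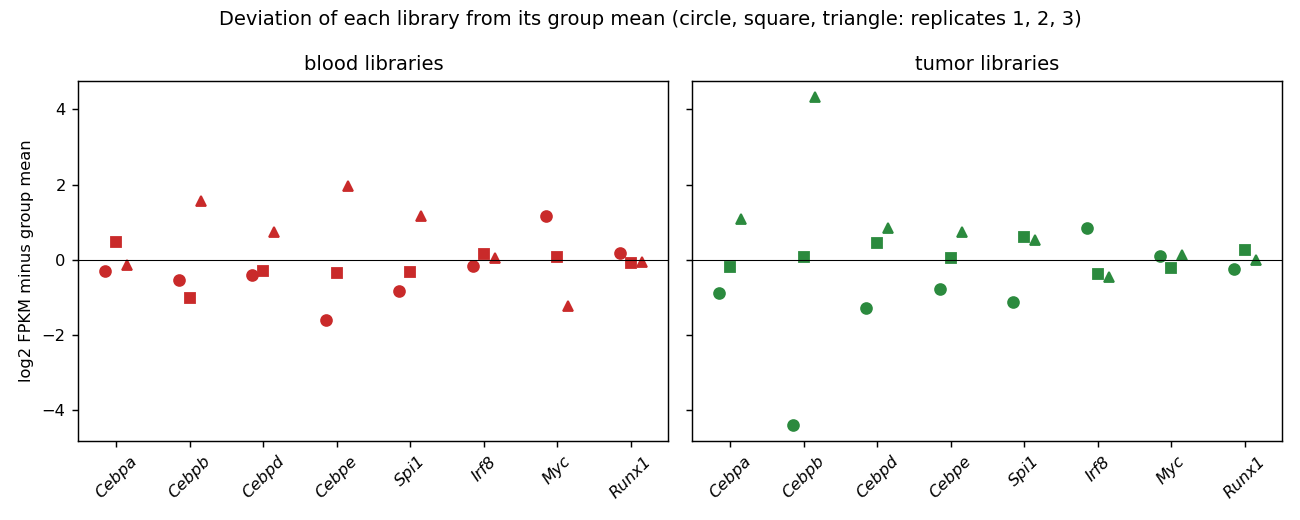
Log2 FPKM of each blood (left) and tumor (right) library minus its group mean (vertical axis) for 8 of the factors, with circle, square and triangle for replicates 1, 2 and 3. Tumor replicate 1 was lowest of its group for Cebpa, Cebpb, Cebpd, Cebpe, Spi1 and Runx1, and blood replicate 3 was highest for Cebpb, Cebpd, Cebpe and Spi1.

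As the plot of deviations from the group mean shows, Cebpb, Cebpd, Cebpe and Spi1 lay on the same side of the other 2 libraries of their group in each blood and tumor library. Cebpa did so in tumor replicates 1 and 3 and blood replicate 1, but stood at -0.22 in blood replicate 3, 0.68 in blood replicate 2 and -0.30 in tumor replicate 2, opposite to the others. Tumor replicate 1 was below the mean of the other 2 tumor libraries by -1.33 for Cebpa, -6.60 for Cebpb, -1.92 for Cebpd, -1.17 for Cebpe and -1.71 for Spi1, while Irf8 was above it by 1.25 and the median of all genes tested was at 0.02. Blood replicate 3 was above the other 2 blood libraries by 2.35 for Cebpb, 1.10 for Cebpd, 2.94 for Cebpe and 1.75 for Spi1, and below them by -1.86 for Myc, with a median of all genes at -0.03. These genes share libraries, so their joint deviation is 1 observation per library and not several.

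Among C/EBP relatives and partners, the shares called higher in tumor stood near those of all genes. Of 11 genes tested on the read filter, 3 were higher in tumor than in bone marrow (25.2% of all genes) and 0 lower (18.4%), with a median difference of 1.38 against 0.29 over all genes. Against blood 4 were higher (32.4%) and 1 lower (20.2%), with a median of 1.27 against 0.50. Against bone marrow, 4 were higher and 0 lower at an unadjusted p under 0.05, and limma-voom called 5 and 0. Trib1, the gene of a pseudokinase that targets C/EBPα for degradation, had log2 FPKM of 4.46, 4.62 and 4.21 in bone marrow, 4.09, 4.31 and 4.30 in blood and 6.06, 6.34 and 5.75 in tumor. It was higher in tumor than in blood by 1.82 (SE 0.17, adjusted p = 6.1e-05, limma) without overlap. Ddit3, which encodes the stress-induced partner CHOP, rose from bone marrow to blood by 1.72 (adjusted p = 0.000855) and stood 2.01 above bone marrow in tumor. Cebpg, a short C/EBP without its own activation domain, rose by 1.11 in blood (adjusted p = 0.00272) and was lower in tumor than in blood by a difference of -1.16 (adjusted p = 0.000913).

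Irf8 (chr8:120736358-120756694, plus strand), the gene of the factor of the monocyte and dendritic branch, stepped down through the compartments. Irf8 log2 FPKM was 1.67, 1.06 and 1.68 in bone marrow, -0.325, -0.005 and -0.097 in blood and -0.87, -2.08 and -2.15 in tumor, from 36 to 433 reads per library. No compartment overlapped another. Irf8 fell by 1.61 on the log2 scale from bone marrow to blood (SE 0.37, adjusted p = 0.00984, limma) and was lower in tumor than in blood by a difference of -1.56 (adjusted p = 0.0071), and the difference of -3.17 between tumor and bone marrow was a 9.01-fold lower level (adjusted p = 0.000227). Since Irf8 was over 0 only in the 3 bone marrow libraries, it entered this fit through the compartment where it was high. Its calls also held with the filter on reads, which does not depend on log2 FPKM over 0. The call in blood was lost with quantile normalization (adjusted p = 0.103). Both tumor calls held in all 23 alternatives, though with 1 FPKM added the differences shrank to -0.52 and -1.51.

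Markers of the cells that IRF8 serves went in several directions. Of the 15 monocyte and macrophage markers tested on the read filter, 3 were higher and 2 lower in blood than in bone marrow (median difference -0.46 against 0.00 over all genes), and 3 were higher and 6 lower in tumor than in blood (0.65 against 0.50). The shares over all genes were 12.6% and 16.3% in the first contrast and 32.4% and 20.2% in the second. Ccr2, the chemokine receptor of inflammatory monocytes, had log2 FPKM of 3.62, 3.06 and 3.61 in bone marrow, 3.10, 1.82 and 2.497 in blood and -0.36, -1.20 and -0.90 in tumor, lowest in tumor as Irf8 was, whereas Csf1r was highest in blood.

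The 9 dendritic cell markers summed to 50.2 to 60.8 RPM in tumor, against 22.4 to 41.5 in bone marrow and 18.9 to 32.1 in blood, but Bst2 and Tcf4, which many cells express, gave 78.9% to 94% of the tumor sum. The other 7 summed to 3.54 to 10.6 RPM in tumor, 11 to 22.9 in blood and 12.5 to 27.2 in bone marrow, lowest in tumor. Of these, Siglech of plasmacytoid dendritic cells had 44 to 102 reads per bone marrow library, 3 to 22 in blood and 0 in all 3 tumor libraries.

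Several ETS and IRF relatives rose into the blood and were lower again in tumor. Of 16 tested on the read filter, 7 rose and 1 fell from bone marrow to blood (median difference 0.79 against 0.00 over all genes), and 2 were higher and 9 lower in tumor than in blood (-1.14 against 0.50). Over all genes, 12.6% rose and 16.3% fell from bone marrow to blood, and 32.4% were higher and 20.2% lower in tumor than in blood. Irf7, the interferon-response factor, rose by 1.48 in blood (adjusted p = 0.00039, limma) and was lower in tumor than in blood by a difference of -1.26 (adjusted p = 0.000333). Ets2 rose in both steps, with log2 FPKM of 2.79, 2.36 and 2.06 in bone marrow, 4.45, 3.84 and 3.88 in blood and 5.21, 5.52 and 5.04 in tumor, and it stood 2.85 above bone marrow in tumor (adjusted p = 4.1e-05). Fli1, an ETS factor of blood and endothelial cells, was lower in tumor than in blood by a difference of -1.40 (adjusted p = 0.000328).

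Myc (chr15:61985391-61990374, plus strand), which encodes a factor of growth and ribosome building, had the largest positive difference of the 10 factors in tumor against both other compartments. Its log2 FPKM was 2.10, 1.55 and 1.79 in bone marrow, 0.69, -0.41 and -1.72 in blood and 3.87, 3.57 and 3.91 in tumor. The reads were 83 to 144 per bone marrow library, 7 to 32 in blood and 451 to 602 in tumor. No compartment overlapped another, and the SD within tumor was 0.19 against 1.21 within blood.

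Myc fell by 2.29 on the log2 scale from bone marrow to blood (SE 0.53, adjusted p = 0.00958, limma) and was higher in tumor than in blood by 4.26 (SE 0.53, adjusted p = 0.00024), a 19.2-fold higher level. Against bone marrow it was higher in tumor by 1.97 (adjusted p = 0.0138), a 3.92-fold higher level. The call against blood held in all 23 alternatives (differences of 3.02 to 4.85), and the other 2 were lost only without a filter on low values. Myc is among the genes the study displays from these libraries, so its direction is not independent evidence. The epithelial, fibroblast and acinar markers given above moved with it, at 2827 to 6006, 1108 to 1363 and 558 to 2409 RPM in tumor, and their part in the Myc level was not tested.

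Partners and antagonists of MYC and MYB went in several directions. Of 16 tested on the read filter, 2 were higher and 6 lower in tumor than in blood (median difference -0.52 against 0.50 over all genes), and 3 were higher and 6 lower than in bone marrow (-0.45 against 0.29). Over all genes, 32.4% were higher and 20.2% lower in tumor than in blood, and 25.2% and 18.4% than in bone marrow. Max, the obligate partner of MYC, had log2 FPKM of 3.63, 3.54 and 3.37 in bone marrow, 3.32, 3.23 and 3.49 in blood and 2.07, 2.11 and 1.83 in tumor, lower in tumor than in blood by a difference of -1.34 (adjusted p = 7.6e-05, limma). Mxd1, a MAX-binding antagonist of MYC that is abundant in mature neutrophils, was lower in tumor than in blood by a difference of -0.99 (adjusted p = 0.000834). Mycn, the MYC paralog, was read 6, 6 and 1 times in bone marrow, 0 times in all 3 blood libraries and 119, 106 and 221 times in tumor, and it was called higher in tumor against blood (adjusted p = 1.9e-05) and bone marrow (0.000442). Mycn reads were most numerous in tumor replicate 3, where the epithelial, fibroblast and acinar marker sums were also highest. The part of these cells in the Mycn reads was not tested.

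**Figure D3:**
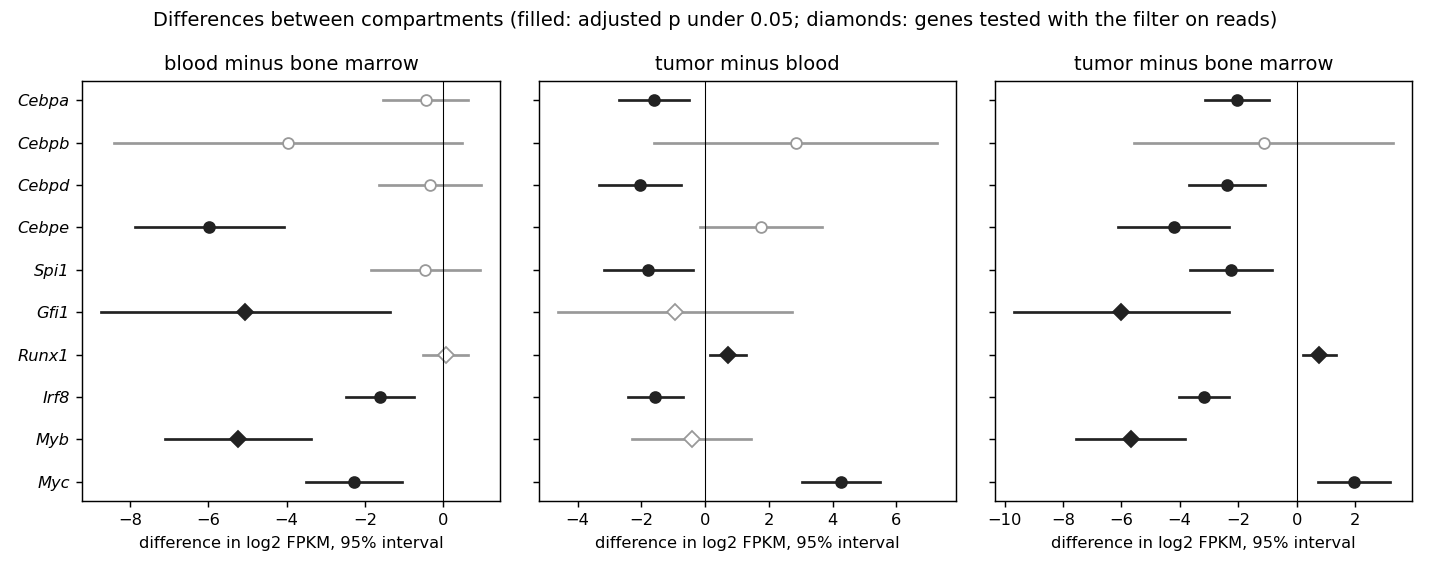
Difference in log2 FPKM (horizontal axis) with its 95% interval for each factor in blood minus bone marrow, tumor minus blood and tumor minus bone marrow, with filled symbols for adjusted p under 0.05 and diamonds for the 3 genes tested with the filter on reads. Myc lies to the right in both tumor panels at 4.26 and 1.97, and Cebpb has the widest intervals of the 7 genes tested on FPKM.

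The panel of differences with their intervals shows which calls are close to the threshold. Irf8 and Myc lay clear of 0 in all 3 contrasts, Cebpe and Myb in both contrasts with bone marrow, and the tumor-blood intervals of Spi1 (-3.18 to -0.39), Cebpa (-2.69 to -0.50) and Runx1 (0.15 to 1.30) ended near 0. The scaling of the libraries matters for these: the scaling factors in the deposited values were 0.796 to 0.881 for bone marrow, 0.818 to 0.863 for blood and 1.08 to 1.22 for tumor, and plain library totals raised the median tumor difference of all genes by 0.45 in both tumor contrasts.

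Receptors that feed these factors were also followed. Of 11 growth factor receptors of myelopoiesis, 6 rose and 1 fell from bone marrow to blood on the read filter (median difference 1.15 against 0.00 over all genes), and 2 were higher and 7 lower in tumor than in blood (-2.02 against 0.50). The shares over all genes were 12.6% and 16.3% in the first contrast and 32.4% and 20.2% in the second. Csf3r, the G-CSF receptor, had log2 FPKM of 7.08, 7.16 and 6.71 in bone marrow, 9.39, 9.36 and 9.21 in blood and 7.13, 7.25 and 6.82 in tumor. It rose by 2.34 into blood (adjusted p = 3.7e-05, limma) and was lower in tumor than in blood by a difference of -2.26 (adjusted p = 1.4e-05), and tumor and bone marrow overlapped. Il6st, the gp130 chain of the IL-6 receptor, was higher in tumor than in blood by 3.28 (adjusted p = 0.000204, limma). Epithelial and fibroblast transcripts were also higher in tumor, and their part in the Il6st level was not tested.

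Among other factors of early myelopoiesis, 7 of 20 rose and 5 fell from bone marrow to blood on the read filter (median difference 0.36 against 0.00 over all genes), and 3 were higher and 8 lower in tumor than in blood (-0.58 against 0.50). The shares over all genes were 12.6% and 16.3% in the first contrast and 32.4% and 20.2% in the second. Nr4a1, an activity-induced nuclear receptor, rose in both steps, with log2 FPKM of 7.59 to 7.71 in tumor against 3.92 to 4.20 in blood and 1.80 to 2.08 in bone marrow, and its difference between tumor and blood was 3.60 (adjusted p = 1.9e-06, limma). Klf4, a monocyte-promoting and epithelial factor, was higher in tumor than in blood by 3.17 (adjusted p = 0.000167). Bcl6, a repressor that is present in mature neutrophils, was lower in tumor than in blood by a difference of -3.05 (adjusted p = 5.2e-05), and Ikzf1, the lymphoid and myeloid factor Ikaros, fell in both steps and stood at -2.48 against bone marrow in tumor (adjusted p = 2.7e-05).

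**Figure D4:**
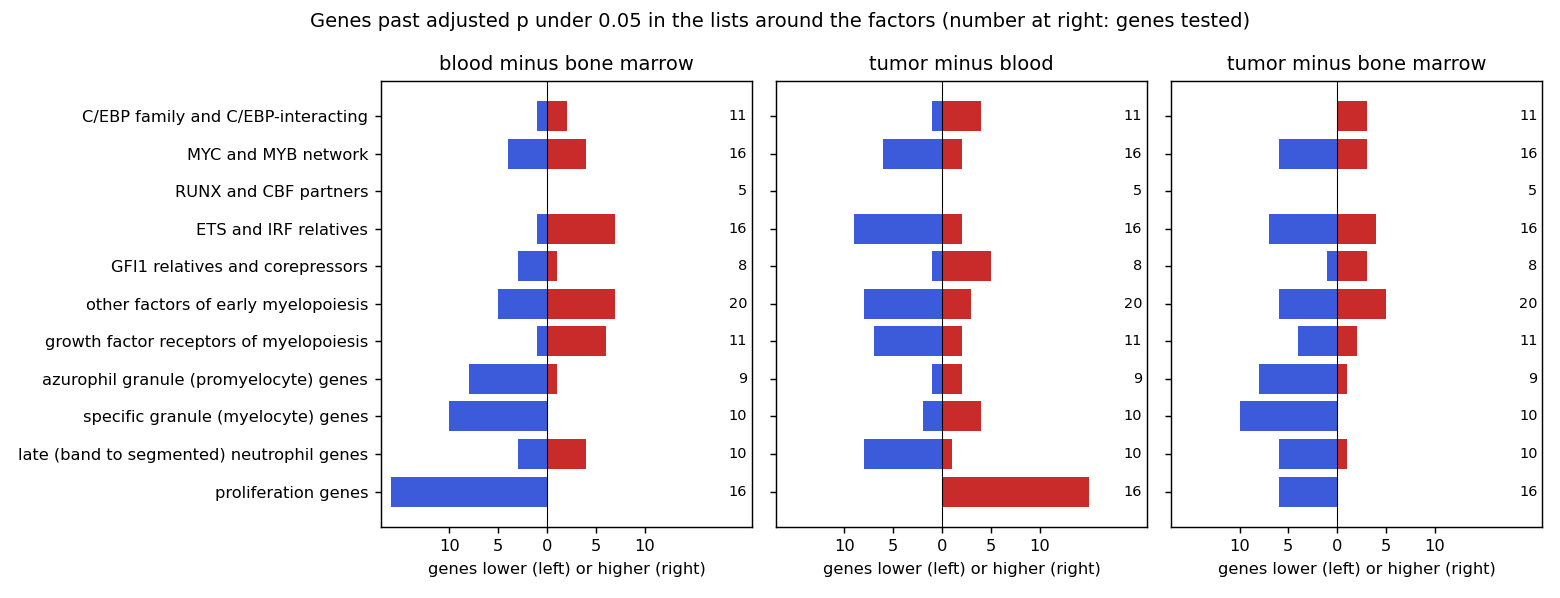
Number of genes past adjusted p under 0.05 in each list around the factors, lower to the left and higher to the right (horizontal axis), for the 3 contrasts, with the number of genes tested on the filter of at least 5 reads at the right. The granule lists lie to the left in both contrasts with bone marrow, and 15 of 16 proliferation genes lie to the right in tumor against blood.

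The counts by list show the factors within their surroundings. Specific granule and azurophil genes were lower outside the marrow, as were Cebpe, Gfi1, Myb and Irf8, whereas receptors and ETS or IRF relatives were more often called higher in blood than lower, a step in which 0 of the 10 factors rose. The median difference over the 10 factors was -1.95 from bone marrow to blood, -0.69 from blood to tumor and -2.31 from bone marrow to tumor, where all 17714 genes had 0.00, 0.50 and 0.29. The 10 neutrophil markers had medians of -1.0, -1.84 and -2.76 in the same order, and their part in the differences of the factors was not tested.

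The genes whose log2 FPKM over the 9 libraries was most like each tested factor were found by Pearson's r among all 7794 genes, as a description of these libraries, which fall into 3 compartments. Chil3, a gene of the myelocyte stage in the specific granule list, was most like Cebpe (r = 0.981), and the palmitoyltransferase gene Zdhhc7 most like Spi1 (r = 0.987) and also among the nearest to Cebpd (r = 0.977). Eif3e, the gene of a translation initiation subunit, was nearest to Myc (r = 0.994), Msrb2 to Irf8 (r = 0.986), Nat8l to Cebpa (r = 0.976), Rhob to Cebpb (r = 0.972) and WI1-1993I8.1 to Cebpd (r = 0.983). Rhob, which encodes a small GTPase, had log2 FPKM of 3.76, 4.83 and 5.61 in the tumor libraries, the same order as Cebpb over a narrower range.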

How the data were processed

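RNA from sorted bone marrow, blood and tumor neutrophils was sequenced by the authors after SMARTSeq v2 amplification, in 9 libraries (3 per compartment, grouped by their labels). The submitters' processing notes name STAR 2.5.2b, featureCounts 1.5.0, edgeR 3.8.6 and GRCm38 (mm10), and the study's methods name GENCODE M7 genes and limma-voom. The values are log2 FPKM, which the authors computed and deposited for 46517 genes. From their steps, whole reads were recovered for 46517 genes (tolerance 0.0001). The added constant equals 0.143 to 0.287 reads per library. The length was the genomic span for 38873 of the 46005 genes found in GENCODE M21, which supplied positions and exon lengths. For Cebpd the deposited length of 1181 bases was used.

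Because the unit was log2 FPKM, a linear model with 1 coefficient per compartment and trended empirical Bayes variances was fitted with limma 3.58.1 (R 4.3.3) on genes over 0 in at least 3 libraries, with Benjamini-Hochberg adjustment over all genes and a threshold of 0.05, in two-sided tests. A further fit took every gene that reached 5 reads in a library. Scripts were tested on simulated data. The genes named are the 10 factors, the genes of lists of relatives, receptors, stage genes and cell markers, and the genes most correlated with each tested factor. The factors and lists were chosen with earlier results of these data known. Alternatives covered filters, pseudocounts, normalization, variance models, limma-voom on recovered reads, the replicate block, fits of 2 groups and each library left out. The GC adjustment and the repeats for Gfi1, Myb and Runx1 on the read filter and without a filter, and the marker sums without their leading genes, were added after seeing the data. Reads were not corrected for duplicates, so floors cover counting error only.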

Additional observations from a re-analysis of the deposited data

How the results depend on the processing

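With 3 pools per compartment, calls near the threshold depend on single libraries, and Gfi1, Myb and Cebpa rest on few reads outside the bone marrow. Cebpa also had only 28 to 37 reads per bone marrow library. In blood, Cebpe (2 to 30 reads per library), Cebpb (4 to 21) and Myc (7 to 32) rest on few reads as well, as does Cebpb in tumor replicate 1 (3 reads). Deviations of same-numbered libraries were hardly correlated (-0.071 to 0.108). This cannot decide whether compartments share pools, since the numbers may not follow the experiments. With the replicate block the factors counted as higher and lower were 1 and 4 for tumor against blood, 1 and 5 for tumor against bone marrow and 0 and 3 for blood against bone marrow, as without it. For tumor against blood, 2 factors were higher without a filter, with the filter on reads, with plain library totals and with limma-voom, and 1 was lower without a filter, 2 with plain totals and 2 in the fit of the 2 groups. Leaving out 1 library gave 1 to 2 higher and 2 to 4 lower in this contrast (2 lower without blood replicate 2). With the filter on reads and with limma-voom, which test all 10 factors, 2 were higher in tumor than in bone marrow and 5 lower in blood than in bone marrow. The cause of these changes was not tested. The sign turned for Gfi1 in tumor against blood without blood replicate 3 (0.353, lowest -2.587 without another library), for Runx1 in tumor against blood with quantile normalization (-0.061) and median centring (-0.028), for Runx1 in blood against bone marrow without blood replicate 1 (-0.028, highest 0.131), for Myb in tumor against blood with plain totals (0.023), without blood replicate 2 (0.142) and without tumor replicate 2 (0.164, lowest -1.255), and for Cebpb in tumor against bone marrow without tumor replicate 1 (1.08, lowest -3.282). Over all single-gene alternatives, 601 kept direction and side of the threshold, 53 lost the call, 7 gained it and 8 turned.

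Over all genes, 2194 were higher and 2686 lower in tumor than in blood, against 4611 and 2921 without a filter, 5740 and 3574 with the filter on reads and 5871 and 3888 with limma-voom. For tumor against bone marrow, 1745 were higher, against 3396, 4469 and 5192 under the same settings. For blood against bone marrow, 1605 were higher and 1841 lower, against 2231 and 2890 with the filter on reads and 2449 and 2912 with limma-voom. With plain library totals the share of higher genes among calls went from 45% to 60.6% in tumor against blood and from 40.5% to 61.4% in tumor against bone marrow (2601 higher and 1634 lower, against 2566 lower).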

Other observations

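Transcripts of other lineages differed between the compartments beyond the lists used in the comparisons. Platelet markers, 6 genes such as Ppbp and Pf4, summed to 469 to 638 RPM (reads scaled to a common library total) in blood neutrophils against 6.89 to 11.4 in bone marrow and 3.86 to 10.8 in tumor. Red cell markers summed to 245 to 471 RPM in blood, 29.8 to 59.1 in bone marrow and 12.9 to 140 in tumor. Of 8 B and plasma cell markers 1 was higher and 6 lower in tumor than in blood, of 9 T and NK cell markers 0 and 5, and of 6 endothelial markers 4 and 0, by limma on the read filter. At an unadjusted p under 0.05 these counts were 1 and 6, 0 and 5, and 5 and 0, and limma-voom gave 1 and 6, 0 and 7, and 6 and 0. Of 8 stem and progenitor markers, 3 were higher and 2 lower in this contrast, in which 32.4% of all genes were higher and 20.2% lower. Of 10 genes of band and segmented neutrophils, 4 rose and 3 fell from bone marrow to blood, where 12.6% of all genes rose and 16.3% fell. In tumor against blood, 1 of these 10 was higher and 8 were lower. Gata1, the erythroid and megakaryocyte factor, was read 29, 42 and 10 times in blood, 13, 11 and 4 times in bone marrow and 0 times in the 3 tumor libraries.

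Blood replicate 2 held 234 reads of the epithelial keratin gene Krt19 and 98 of Epcam, against at most 2 and 1 in the other blood libraries. Kit, the stem cell factor receptor, was lower in tumor than in blood by a log2 difference of -2.31 (adjusted p = 0.000965, limma).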
